A study of Mus musculus with 9 samples.

Results

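The 2′-5′ oligoadenylate synthetase (OAS) family comprised 8 of the 1710 genes in the deposited table, chosen by symbol (Oas1, Oas2, Oas3 or Oasl at its start). They were Oas1a, Oas1b, Oas1c, Oas1g, Oas2, Oas3, Oasl1 and Oasl2. The row of Oas1g (ENSMUSG00000066861) carried the deposited symbol Oas1a and was named here by its identifier. Total RNA was sequenced from wild-type (WT) mouse brain tissue labelled "brain ctx", taken at the injected site 10 days after stereotaxic injection, in 9 libraries. PBS (a buffered salt solution, by its name), LowDose and HighDose held 3 libraries each. The series concerns AAV9, an adeno-associated virus that serves as a gene delivery vector. The amounts behind LowDose and HighDose, the transgene and its promoter, and the strain, age and sex of the mice were not found in the labels. Nor do the labels say whether the libraries of a group came from separate animals, so that SD, SE and p measure the spread between libraries, which may be technical.

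OAS enzymes bind double-stranded RNA and then join ATP into short adenylate chains with 2′-5′ bonds. These chains act as a second messenger of the antiviral response. The genes are classical targets of type I interferon, the antiviral cytokine family, whose signal reaches a DNA element in the promoters of such genes. Oas1a and Oas1g encode small active synthetases in the mouse. Oas2 and Oas3 encode larger synthetases built of repeated OAS units. Oasl1 and Oasl2 carry ubiquitin-like domains at their ends. Oasl1 makes no adenylate chains and is known to hold back translation of Irf7 mRNA, while mouse Oasl2 is an active enzyme. Oas1b is known as a flavivirus resistance gene, cut short by a stop codon in many laboratory strains.

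The genes lie at a pair of loci on chromosome 5 (mm10, GENCODE M21). Oasl2 (114896936 to 114912234) and Oasl1 (114923240 to 114937915) lie side by side on the plus strand. The other locus spans 191 kb, from 120730333 to 120921652, and holds 10 annotated genes, of which Oas1d, Oas1e, Oas1f and Oas1h were not analysed here. Oas2 (120730333 to 120749853), Oas3 (120753098 to 120777661), Oas1c (120800194 to 120812514), Oas1g (120876142 to 120887613) and Oas1a (120896256 to 120907521) are on the minus strand. Oas1b (120812635 to 120824163, plus strand) is annotated as a polymorphic pseudogene. Its start and that of Oas1c face away from each other with 120 bases between them. None of the 8 protein-coding genes flanking the loci, 2 on each side, was analysed here.

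The start regions are shown because 7 members moved together in HighDose and Oas1c, which shares its start region with Oas1b, moved far less. Sequences are from RefSeq (GRCm38.p6), which had start regions for 6 of the 8 members, Oas1a, Oas1c, Oas1g, Oas3, Oasl1 and Oasl2. The letters searched, on either strand, were GAAA, any 2 bases and GAAA again, the core of the interferon-stimulated response element. Capitals mark the matches, which overlap each other in the Oas1 genes. The stretch between Oas1c and Oas1b is printed in the direction of Oas1b, and the others in the direction of their gene, ending at the base before its RefSeq start, which for Oas1a and Oas3 lies a few bases from the GENCODE one.
Between Oas1c and Oas1b (chr5:120812515-120812634, plus): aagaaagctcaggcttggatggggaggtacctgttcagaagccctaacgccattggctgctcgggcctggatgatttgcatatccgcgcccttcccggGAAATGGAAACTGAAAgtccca
Before Oas1a (chr5:120907526-120907625, minus): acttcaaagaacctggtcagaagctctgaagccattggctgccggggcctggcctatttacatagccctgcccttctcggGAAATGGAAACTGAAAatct
Before Oas1g (chr5:120887614-120887713, minus): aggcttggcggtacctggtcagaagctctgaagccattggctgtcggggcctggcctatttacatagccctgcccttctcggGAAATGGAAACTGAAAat
Before Oas3 (chr5:120777660-120777759, minus): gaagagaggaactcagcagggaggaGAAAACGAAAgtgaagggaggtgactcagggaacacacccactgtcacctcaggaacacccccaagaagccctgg

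A run of 19 bases, CGGGAAATGGAAACTGAAA, was common to the first 3 of these stretches. Of the 32851 RefSeq start regions it occurred in 3, those of Oas1a, Oas1c and Oas1g. Upstream of Oas1a the matches covered bases 5 to 20 before the start and upstream of Oas1g bases 3 to 12 and 9 to 18. In the stretch between Oas1c and Oas1b they covered bases 7 to 22 before the GENCODE start of Oas1b, in its own direction, and bases 99 to 114 before the start of Oas1c, on the opposite strand. Oas3 held 1 match, at bases 66 to 75 before its start. The windows of Oasl1 and Oasl2 (250 bases before to 50 after the start) held no match to these letters. Such a match was held by 3.44% of all start regions and by 9.61% of those whose gene was in the deposited table. The letters TTCNNNGAA, the core of the gamma-activated site, matched in Oas1a only among the 6, at bases 90 to 98, against 8.30% of all start regions. A match of letters is a description and was not tested as a site.

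**Figure D1:**
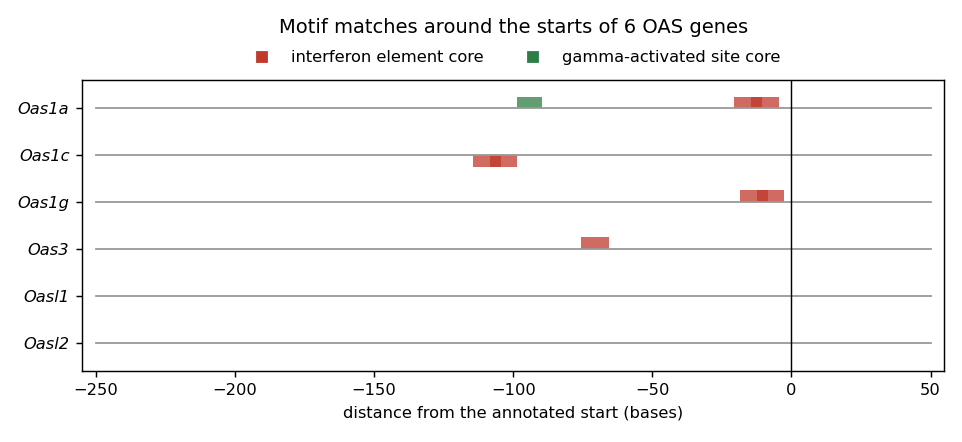
Matches to the interferon element core and the gamma-activated site core in the start regions of 6 OAS genes, by distance from the RefSeq start in bases; boxes above the line run in the gene's direction and boxes below it on the opposite strand. Oas1a and Oas1g hold overlapping matches within 20 bases of the start, Oas1c holds them at 99 to 114 bases on the opposite strand, and Oasl1 and Oasl2 hold none.

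Library totals were 18.3 to 21.7 M in PBS, 18.7 to 23.7 M in LowDose and 20.9 to 23.1 M in HighDose (M, 1e6 reads or read pairs). The table holds selected genes, since the group means of every one, in FPKM, lay 2-fold or more apart in at least 1 comparison. The cortical label could not be checked, since 0 of 4 cortical neuron markers were analysed here, whereas all 6 striatal neuron markers were in the table. Their summed level was 427 to 646 CPM (counts scaled to 1e6 of the library total) in PBS, 166 to 360 in LowDose and 150 to 183 in HighDose, and against PBS 6 of them fell in HighDose and 5 in LowDose. Of the 1583 tested genes 169 fell in HighDose and 34 in LowDose against PBS. In the scalings within the table described with Oas1c, 6 of the striatal markers again fell in HighDose but 0 in LowDose. Markers of several other cell types also differed between HighDose and PBS. Of all tested genes 86.3% rose in that comparison, so a count of risen markers by itself says nothing particular about a cell type. Of the T cell markers 5 of 6 were analysed and 5 rose (summed 6.30 to 14.3 CPM in HighDose, 0.0922 to 0.273 in PBS), and of the monocyte and border macrophage markers 3 of 5, of which 2 rose and Cd163 fell (69.1 to 124 CPM in HighDose, 1.61 to 1.94 in PBS). Of 6 microglial markers 3 were analysed, of which Aif1 and Tmem119 rose and P2ry12 fell (75.4 to 82.1 CPM in HighDose, 57.0 to 70.9 in PBS), but Tmem119 fell (-0.63, -0.60 and -0.60) in those scalings. All 3 NK cell markers rose (3.37 to 6.66 CPM in HighDose, 0.0484 to 0.138 in PBS), as did 2 of 2 tested B cell markers (2.32 to 4.07 CPM in HighDose, 0.109 to 0.339 in PBS). The tested T, B and NK cell markers, and the risen Ly6c2 and Ccr2, held 8 counts or fewer in every PBS and LowDose library. They could pass the low-count filter only through HighDose and had to differ, so their upward calls carry no weight. Gfap, the 1 astrocyte marker analysed, rose (374 to 534 CPM in HighDose, 113 to 146 in PBS), a call that was lost in those scalings, and 3 of 3 oligodendrocyte markers fell (797 to 1089 CPM in HighDose, 1663 to 2182 in PBS). In LowDose 2 of the 3 fell against PBS, and 0 in those scalings. Markers of neutrophils and endothelium were not analysed here. The part of these cells in the OAS values was not tested, and in tissue RNA more cells of a type and more RNA per cell cannot be told apart.

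The OAS genes were higher in HighDose than in PBS, Oas1c by far the least and only when scaled to library totals. All 8 members passed the test upward against PBS (edgeR quasi-likelihood test, adjusted p threshold 0.05 over 1583 tested genes), where 86.3% of the tested genes did so too. All 8 also had every HighDose library above every PBS library, as 85.8% of the tested genes had. Both shares are near the background of a table chosen for differences, so the count by itself says nothing particular about the family. Of the 8, Oasl1, Oas3, Oas1b and Oas1g passed the low-count filter only through HighDose and had to differ. For these genes only the size of the HighDose change, with its SE, is given below. By size of change, the median log2 change of the 8, these genes included, was 6.65, beside 1.90 over all tested genes. Each member other than Oas1c lay above at least 93.4% of the tested genes.

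Oasl2 was the most abundant member in every library. It stood at 333, 532 and 557 CPM in HighDose replicates 1 to 3, against 4.09, 4.75 and 4.43 CPM in PBS. The groups were far apart, with a log2 change of 6.74 ± 0.29 (SE, adjusted p = 1.54e-23, edgeR). Its relative Oasl1, the repressor of Irf7 translation, had 51.2, 64.3 and 93.4 CPM in HighDose, against 0.436, 0.339 and 0.369 CPM in PBS. That is 7 or 8 counts in each PBS library and 1171 to 2156 in HighDose. The log2 change of Oasl1 was 7.50 ± 0.35.

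Among the active Oas1 enzymes, Oas1a had 62.3, 83.2 and 97.3 CPM in HighDose, against 0.872, 1.06 and 0.646 CPM in PBS. Its log2 change was 6.55 ± 0.30 (adjusted p = 4.83e-23, edgeR). Oas1g had 14.1, 18.0 and 25.8 CPM in HighDose, against 0, 0.301 and 0 CPM in PBS. Its fitted log2 change of 7.53 ± 0.50 rests on the 6.21 estimated counts of PBS replicate 2. The other PBS libraries had 0 counts, so the size of that change is uncertain. The pair shares sequence. Of the 50-base words in the transcripts of Oas1a, 57.6% also occurred in Oas1g, and 45.2% of those of Oas1g in Oas1a. Their counts were not whole in all 3 HighDose libraries and the level of each is uncertain. Summed to 1 feature, a choice made after the data were seen, the pair changed by 6.70 ± 0.31 on the log2 scale (adjusted p = 2.64e-23, edgeR).

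Of the larger synthetases, Oas3 had the lowest mean FPKM of the family in PBS. It was at 44.1, 55.7 and 59.1 CPM in HighDose, against 0.164, 0.0968 and 0.138 CPM in PBS. These PBS values are 3, 2 and 3 counts, at or under the floor of 3 counts per library, while HighDose held 1009 to 1365 counts. Oas3 had the largest fitted log2 change of the family, 8.59 ± 0.38, whose size rests on those few PBS counts. Oas2 had 32.9, 51.9 and 57.8 CPM in HighDose, against 0.600, 0.242 and 0.784 CPM in PBS, a log2 change of 6.44 ± 0.34. No 50-base word of Oas2, Oas3, Oasl1 or Oasl2 occurred in another annotated OAS gene.

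Oas1b and Oas1c, which start 120 bases apart on opposite strands, had log2 changes that lay far apart. Oas1b had 28.5, 45.1 and 58.1 CPM in HighDose, against 0.273, 0.387 and 0.922 CPM in PBS. Its PBS counts were 5, 8 and 20, so that replicate 3 held more than the other libraries together. The log2 change was 6.33 ± 0.35, and 7.02 without PBS replicate 3. Oas1c had 3.68, 3.92 and 5.24 CPM in HighDose, against 1.64, 0.872 and 1.11 CPM in PBS. Its libraries did not overlap either, but the log2 change was only 1.83 ± 0.36 (adjusted p = 1.49e-05, edgeR), just under the median of all tested genes. The ratio of Oas1c to Oas1b counts was 6, 2.25 and 1.2 in the PBS libraries, 6.5, 6.2 and 7 in LowDose and 0.129, 0.0870 and 0.0902 in HighDose. Every HighDose library thus had fewer counts of Oas1c than of Oas1b, and every PBS and LowDose library had more, a pair picked after its values were seen. Counts take no account of transcript length. In FPKM, PBS replicate 3 had slightly less Oas1c (0.48) than Oas1b (0.5).

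The rise of Oas1c depends on the scaling. Within the table, TMM and DESeq2 size factors treat the bulk of its genes as level, and scaling by the sum of its counts holds that sum level. The sum was 1.54% to 1.61% of the library total in PBS and 3.90% to 6.04% in HighDose, in a table chosen for differences. In these scalings the tested genes had a median of 0.19, 0.22 and 0.22. With the median so shifted, 600, 605 and 607 genes rose and 464, 455 and 454 fell, against 1366 and 169 with library totals. Oas1c then stood at 0.13, 0.16 and 0.16 on the log2 scale (adjusted p = 0.686, 0.615 and 0.630, edgeR), and its call was lost. Oasl2, Oas1a and Oas2 passed the test in each of these scalings. Oasl1, Oas3, Oas1b and Oas1g had to differ, since they passed the low-count filter only through HighDose. The log2 changes of these 7 members were 4.60 to 6.94. Transcripts of Oas1c share 9.82% of their 50-base words with other annotated OAS genes, most of them with Oas1e. Annotated gene models overlap Oas1c (Gm43069, antisense), Oasl1 (Gm13822, antisense) and Oas2 (Gm43068). No source used here states whether counting used strand, so reads of such partners cannot be told apart.

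**Figure D2:**
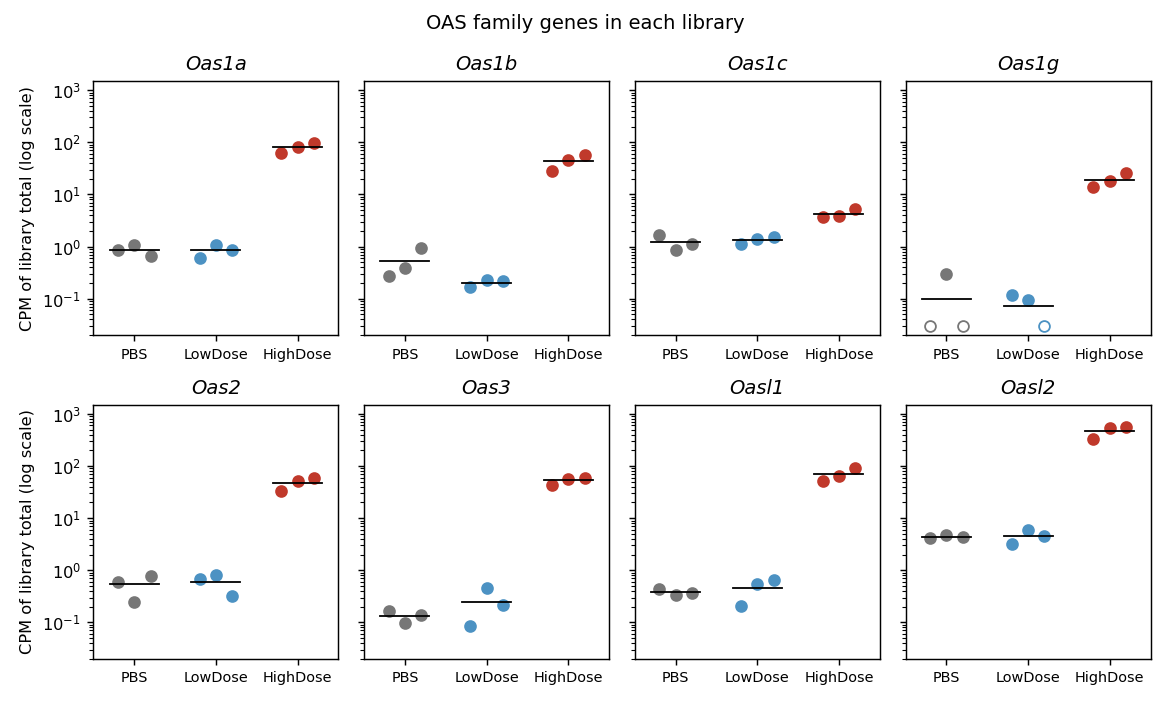
CPM of the library total for each OAS gene (log scale), by group, with 1 point per library (replicates 1 to 3 from left to right) and a line at the group mean; open points at the lower edge stand for 0 counts. For all 8 genes the HighDose libraries lie above all others, by the least for Oas1c at 3.68 to 5.24 CPM, and the LowDose libraries of Oas1b lie below those of PBS.

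**Figure D3:**
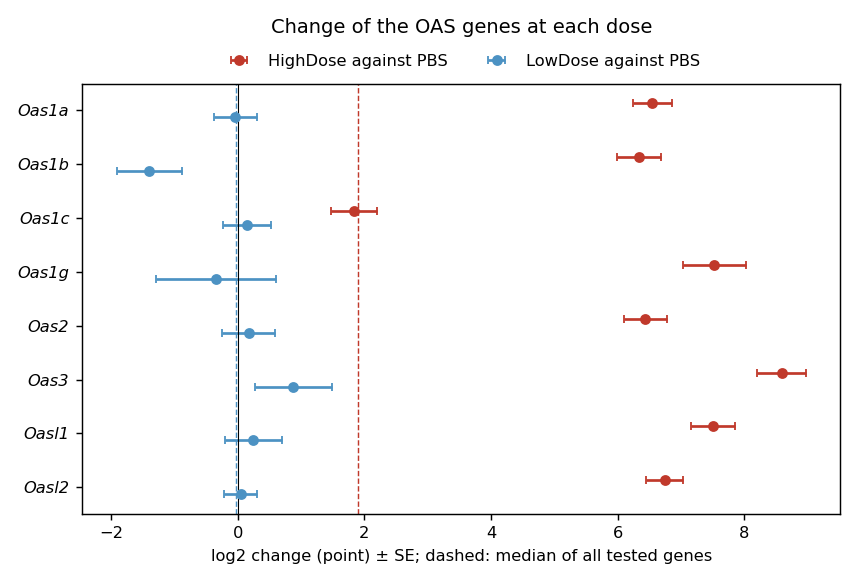
Log2 change of each OAS gene with its SE for HighDose against PBS and LowDose against PBS, n = 3 libraries per group, with dashed lines at the medians of all tested genes (1.90 and -0.03). In HighDose 7 genes lie between 6.33 and 8.59 and Oas1c lies at the median, and in LowDose the values spread about 0 with the lowest for Oas1b at -1.40.

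**Figure D4:**
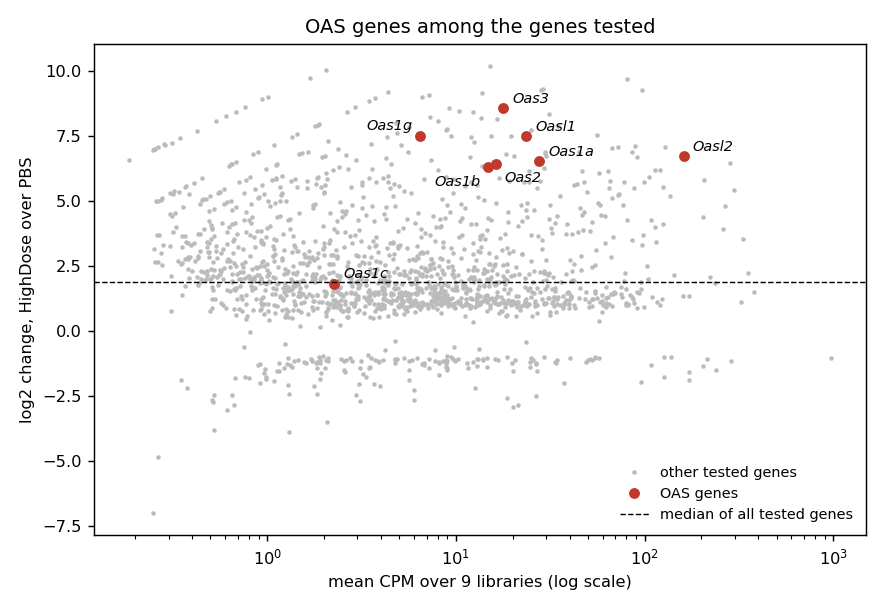
Log2 change, HighDose over PBS, against mean CPM over 9 libraries (log scale) for 1583 tested genes, with the OAS genes marked. Oas1c (1.83) sits on the median line at 1.90, the others in the upper part of the cloud, with Oasl2 at the right as the most abundant.

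HighDose replicates were not alike. Replicate 1 was the lowest and replicate 3 the highest for all 8 members. Of the 1366 genes called up, 69.8% had the same order. The highest library exceeded the lowest 1.34-fold for Oas3 and 2.04-fold for Oas1b, with the other members between them.

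In LowDose the family lay near its PBS level. Of the 8 members 0 passed the test against PBS in edgeR, with 1, Oas1b, at an unadjusted p under 0.05, and 0 passed by the DESeq2 Wald test or limma-voom. Of all tested genes 2.59% passed in either direction, and 11.7% had an unadjusted p under 0.05. With the replicate number as a block, 0 members passed, while the calls over all tested genes numbered 62, against 41 without the block. The median log2 change of the members was 0.10, beside -0.03 over all tested genes. Oasl2 had 3.25, 5.89 and 4.60 CPM in LowDose, against 4.09, 4.75 and 4.43 CPM in PBS, so the LowDose libraries lay on both sides of PBS (log2 change 0.05 ± 0.26). Oas1a had 0.597, 1.08 and 0.855 CPM in LowDose, against 0.872, 1.06 and 0.646 CPM in PBS (-0.04 ± 0.34). Oasl1 (0.25 ± 0.46), Oas2 (0.17 ± 0.42), Oas3 (0.88 ± 0.61), Oas1c (0.14 ± 0.38) and Oas1g (-0.34 ± 0.95) also overlapped between the groups. The value of Oas3 was 0.10 without LowDose replicate 2 and 1.33 without LowDose replicate 1. LowDose libraries held 2 to 18 counts of Oas2, Oas3 and Oasl1 and under 3 of Oas1g, so that differences within these SEs were not detectable at this depth.

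Oas1b, the flavivirus resistance gene, was the only member with every LowDose library below every PBS library. It had 0.169, 0.225 and 0.214 CPM in LowDose, against 0.273, 0.387 and 0.922 CPM in PBS, which is 4, 5 and 4 counts against 5, 8 and 20. The log2 change was -1.40 ± 0.52 (adjusted p = 0.173, edgeR) and did not pass. It was -1.68 with adjusted p = 0.0477 without PBS replicate 1, and -0.71 without PBS replicate 3. Of all tested genes 13.1% lay below PBS in every LowDose library.

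The comparison of HighDose with LowDose shares its HighDose libraries with that against PBS. All 8 members passed upward, as did 88.1% of the tested genes. Oasl1, Oas3, Oas1b and Oas1g, which passed the low-count filter only through HighDose, had to differ here too. Oasl2 stood 6.69 ± 0.29 higher on the log2 scale, Oas1a 6.58 ± 0.30, Oas3 7.71 ± 0.35, Oasl1 7.25 ± 0.34 and Oas2 6.26 ± 0.34. The value of Oas1b was 7.73 ± 0.39, where HighDose had 651 to 1341 counts and LowDose 4 or 5. Oas1g lay at 7.86 ± 0.51, from 4.91 estimated counts over LowDose. The value of Oas3 was 8.48 without LowDose replicate 2, and that of Oas1g 8.46 without LowDose replicate 1. Oas1c was again the lowest, at 1.69 ± 0.36 (adjusted p = 4.19e-05, edgeR), and turned to -0.05, -0.01 and -0.19 in the scalings within the table.

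Levels of different genes were compared in FPKM, the deposited values scaled to transcript length and library total. The family summed to 3.65, 3.64 and 3.45 FPKM in the PBS libraries, 2.55, 3.99 and 3.85 in LowDose and 237, 362 and 407 in HighDose. In PBS the order was Oasl2 (1.92 ± 0.186 FPKM, SD, n = 3), Oas1c (0.523 ± 0.169), Oas1a (0.453 ± 0.110), Oas1b (0.287 ± 0.187), Oasl1 (0.180 ± 0.0265), Oas2 (0.137 ± 0.0709), Oas1g (0.05 ± 0.0866) and Oas3 (0.0267 ± 0.00577). The libraries of Oasl2 stood clear of all others, while those of each later pair of neighbours overlapped. In LowDose the order again began with Oasl2 (1.85 ± 0.491), Oas1c (0.580 ± 0.0889) and Oas1a (0.447 ± 0.125), whose libraries lay above those of Oasl1 (0.213 ± 0.1). Oas2 (0.160 ± 0.0557), Oas1b (0.110 ± 0.0173), Oas3 (0.0567 ± 0.0404) and Oas1g (0.0433 ± 0.0404) followed, each overlapping the next. In HighDose Oasl2 had 199 ± 54.1 FPKM, followed by Oas1a (42.9 ± 9.35), Oasl1 (32.0 ± 9.89) and Oas1b (23.9 ± 8.09), which overlapped their neighbours. Oas2 (12.5 ± 3.50), Oas1g (11.6 ± 3.53) and Oas3 (11.4 ± 1.81) lay below these and overlapped each other. Oas1c, next to the top in PBS and LowDose, was the lowest member in HighDose at 2.12 ± 0.621 FPKM, below every library of the others.

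Shares of the summed FPKM do not depend on library totals. Oasl2 made up 59.2% ± 2.37 (SD, n = 3) of the family in HighDose and 53.7% ± 3.80 in PBS, with no overlap between libraries (57.8% to 61.9% in HighDose and 50.1% to 57.7% in PBS). In shares of summed CPM, which use no transcript length, its libraries did overlap, at 58.4% to 62.3% in HighDose and 50.7% to 59.0% in PBS. The share of Oas1c was 0.636% ± 0.0818 in HighDose and 14.6% ± 4.55 in PBS, the widest gap among the members. Oasl1 held 9.55% ± 1.22 in HighDose and 5.03% ± 0.684 in PBS, and Oas3 3.49% ± 0.440 in HighDose and 0.747% ± 0.173 in PBS, again without overlap. For these 4 genes p = 0.10 in a two-sided exact permutation test, the smallest that 3 libraries against 3 allow, and 0.20 adjusted over the 8 members. The shares of the other 4 genes overlapped between the groups. They were 12.9% ± 0.915 in HighDose and 12.6% ± 2.76 in PBS for Oas1a, and 7.03% ± 0.643 in HighDose and 8.12% ± 5.58 in PBS for Oas1b. Oas2 held 3.71% ± 0.160 in HighDose and 3.85% ± 2.09 in PBS, and Oas1g 3.45% ± 0.378 in HighDose and 1.37% ± 2.38 in PBS. In LowDose Oasl2 held 53.2% ± 3.28 and Oas1c 17.0% ± 1.77. The deposited FPKM uses a transcript length of its own for each library, which for Oas1c came to 2297, 2001 and 1866 bases in HighDose replicates 1 to 3, so that its FPKM also reflects that length. For Oasl2 it was 2363 to 2438 bases in HighDose and 2107 to 2559 in PBS. For Oas1a it was 1885 bases in all 3 HighDose libraries.

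**Figure D5:**
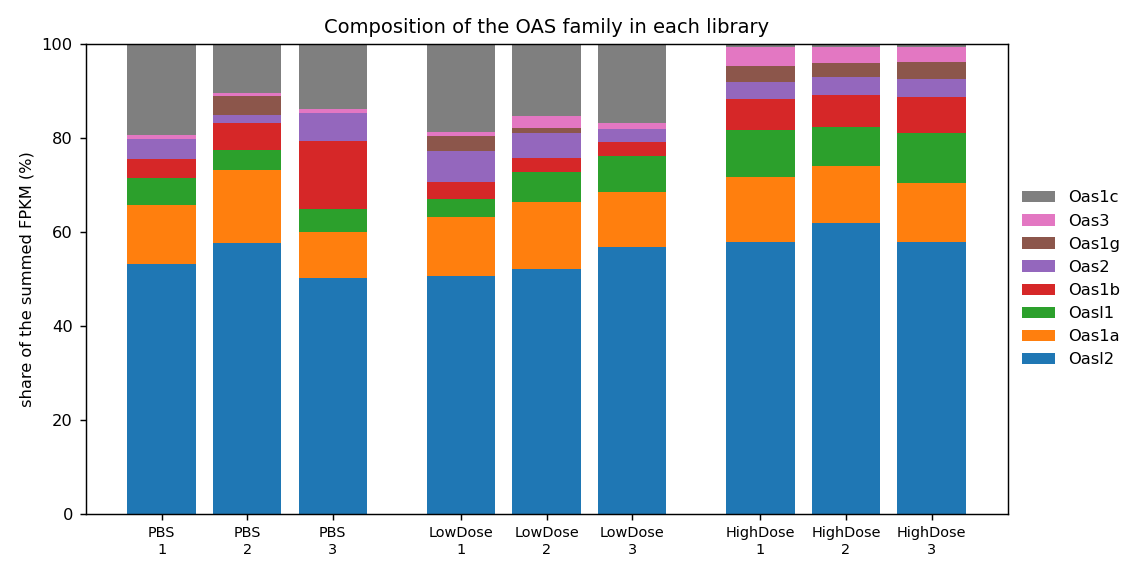
Share of each OAS gene in the summed FPKM of the family (%), 1 stacked bar per library in the groups PBS, LowDose and HighDose. Oasl2 makes up more than 50% of every bar, and the band of Oas1c at the top, 10.4% to 19.5% in PBS, shrinks to 0.542% to 0.690% in HighDose.

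Of 11 listed RNA sensors and effectors 9 were tested, and all 9 rose in HighDose against PBS, as did 86.3% of all tested genes. Their median log2 change was 5.15, beside 1.90 over all tested genes. In the scalings within the table Tlr7 lost its call and 8 of 9 rose, beside 600 to 607 of the 1583 tested genes. Among the 9, Zbp1 held 9 counts or fewer in every PBS and LowDose library. It could pass the low-count filter only through HighDose and had to differ. The dsRNA-activated kinase PKR (Eif2ak2) had 164 ± 51.6 CPM in HighDose and 5.59 ± 0.439 CPM in PBS, a log2 change of 4.87 ± 0.27. Rigi and Ifih1, helicases that sense viral RNA, changed by 5.50 ± 0.27 and 5.29 ± 0.28. Adar was not analysed here. In LowDose 0 of the 9 passed, where 2.59% of all tested genes did.

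Of 13 listed genes of type I interferon signalling 8 were tested. All 8 rose in HighDose against PBS, a count near the 86.3% of all tested genes. Their median log2 change was 4.41, beside 1.90 over all tested genes. Of the 8, 7 rose in the scalings within the table, beside 600 to 607 of the 1583 tested genes, and the receptor chain Ifnar2 fell (-0.71, -0.69 and -0.68, against 0.98 with library totals). Among the factors that carry the interferon signal to promoters, Stat2 stood at 253 ± 64.4 CPM in HighDose and 19.5 ± 1.71 CPM in PBS (log2 change 3.70 ± 0.24), and Irf9 at 137 ± 29.3 CPM in HighDose and 9.40 ± 2.25 CPM in PBS (3.86 ± 0.25). Irf7, whose translation Oasl1 restrains, changed by 6.19 ± 0.29, and Usp18, a brake on the interferon receptor, by 7.06 ± 0.31. Ifnb1 had 57 counts over the HighDose libraries and 0 in PBS and LowDose, and did not pass the low-count filter. Cgas, the DNA sensor whose fold resembles that of OAS proteins, changed by 2.12 ± 0.36, near Oas1c and far below the other members, and Sting1 by 2.06 ± 0.26. Both calls were lost in the scalings within the table. In LowDose against PBS 0 of these genes passed. Irf7 changed by -0.80 ± 0.27 there (adjusted p = 0.104, edgeR). Its LowDose libraries (1.90 to 3.01 CPM) all lay below those of PBS (3.27 to 5.76 CPM), as in 13.1% of all tested genes.

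The genes most like each member were found by the root mean square distance between profiles, taken as log2(CPM + 0.5) less the PBS mean, over the 9 libraries and 1290 candidate genes. Oasl2, Oasl1 and Oas3 had the same 3 nearest genes, Ms4a4c, Ifi211 and the interferon-induced Ifit3. The nearest lay at 0.17 for Oasl2 (Ms4a4c), 0.19 for Oasl1 (Ifit3) and 0.15 for Oas3 (Ms4a4c). Oas1a was nearest to Ifi205 (0.13), Tgtp2 and Il1rn. Oas2 was nearest to Ifit2 (0.22), Gm4951 and Gzmb, and Oas1b to Ifit3b (0.25), Gm4951 and Isg20. Oas1g was nearest to Ifi213 (0.21), Psmb8 and Irgm1. Oas1c was nearest to Aldh1l2 (0.13), Stat3 (0.15) and Plscr1 (0.16). Within the family Oasl2 and Oas3 were closest, at 0.20, with Oas3 and Oasl1 at a like distance and Oasl1 and Oasl2 at 0.25. Oas1c was at least 2.08 from every other member. The pseudocount compresses the profiles of genes near 0 in PBS, among the members Oas3 and Oas1g above all, and some of the nearest genes even more. Ms4a4c had a mean of 0.0335 CPM in PBS, Gzmb 0.0671 and Il1rn 0.0827. The fitted log2 change of Ms4a4c in HighDose against PBS was 10.2, beside 6.74 for Oasl2 and 8.59 for Oas3. A small distance therefore does not mean a like fold change.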

How the data were processed

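Estimated counts and FPKM per gene and library were deposited by the authors, on build mm10 per the submitters' processing notes, which name edgeR and DESeq2 without a role. No source used here names the aligner, the counter, the strand setting or the rule that chose the listed genes. Each library's total was computed as count over FPKM and transcript length, from 23 to 68 genes with 1 transcript (GENCODE M21), FPKM of at least 5, 100 counts and 600 bases. CPM is relative to that total. Per library, 3 counts equal 0.126 to 0.164 CPM, a floor for counting error only. Counts were rounded. After filterByExpr (minimum count 10), 1583 genes were fitted with edgeR 4.0.16 (R 4.3.3, limma 3.58.1, quasi-likelihood test) in 1 model of the 3 groups, with library totals as scaling and the Benjamini-Hochberg adjustment over all tested genes at 0.05. SEs were derived from each F statistic and its log2 change. Replicate numbers were taken from the titles. Deviations of same-numbered PBS and LowDose libraries correlated weakly (0.246, 0.165 and 0.137), each best with its own number. Those of HighDose with PBS (0.069, -0.0057 and 0.151) or with LowDose (0.183, 0.014 and 0.083) did not do so for every library. Pairing was not tested. The test was checked on simulated data. Alternatives were other scalings, filters and tests (DESeq2 1.42.0, limma-voom, limma on FPKM), a replicate block, a 2-fold threshold, leaving out each library and summing Oas1 genes. Members, lists and the rule for named genes (all members, 12 pathway genes, the 3 nearest profiles) were chosen with earlier results of these data known. Some of the pathway genes are not reported here. Figures used matplotlib 3.10.9.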

Additional observations from a re-analysis of the deposited data

How the results depend on the processing

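Against PBS and against LowDose, the 8 members called higher in HighDose numbered 7 under the scalings within the table, which ended the call of Oas1c, and 5 of 5 with the Oas1 genes summed. With Oas1a and Oas1g summed they numbered 7 of 7, and in the other alternatives run 8. Of all tested genes 86.3% were called higher against PBS and 88.1% against LowDose in the main fit. Oasl1, Oas3, Oas1b and Oas1g, which passed the low-count filter only through HighDose, had to differ. The log2 change of Oas1c, HighDose against LowDose, turned to -0.054 with TMM, -0.013 with DESeq2 size factors and -0.19 with the sum of listed counts. For LowDose against PBS 0 to 1 members were called when 1 library was left out, the 1 being Oas1b without PBS replicate 1, and 0 otherwise. Small LowDose values changed sign: Oasl2 to -0.081 and -0.048 in limma on log2(FPKM + 0.1) and log2(FPKM + 1), Oas1g to 0.43 in limma-voom and 0.037 in limma on log2(FPKM + 0.1), and Oas1a to 0.0092 with TMM and 0.17 with the listed sum. Leaving out 1 library gave LowDose ranges of -0.18 to 0.25 for Oasl2, -0.032 to 0.62 for Oasl1, -0.18 to 0.56 for Oas2, 0.10 to 1.33 for Oas3, -0.043 to 0.42 for Oas1c, -0.94 to 3.83 for Oas1g and -0.27 to 0.18 for Oas1a. The share in HighDose minus that in PBS ranged from -1.24 to 0.834 points for Oas2, -3.10 to 2.09 for Oas1b and -1.05 to 1.71 for Oas1a, which stood at -0.253 in shares of CPM. On log2(FPKM + 1), which understates the change of low genes, the HighDose changes against PBS were 3.53 to 6.06 for the members other than Oas1c and 1.02 for Oas1c. The causes of the other shifts were not tested.

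By the correlation of deviations each PBS library was most like the LowDose library of its own number, though weakly. For HighDose with either group this did not hold for every library. Whether the numbers mark pairs was not tested. A replicate block in the model of all 3 groups changed no call of a member. With it 8 members were called in HighDose against either group and 0 in LowDose against PBS. Of the 1583 tested genes, 1368 then rose in HighDose against PBS and 1395 against LowDose. In LowDose against PBS 62 tested genes were called with the block, beside 41 without it. Over all tested genes LowDose against PBS gave 6 calls with TMM, 6 with size factors, 11 with the sum of listed counts and 26 to 79 when 1 library was left out. Depth limits the LowDose and PBS values of Oas3, Oas1b and Oas1g most.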
